A study of Drosophila melanogaster with 30 samples.

Results

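Mature crystal cells of the lymph gland were taken as the cells in which the transcripts of the prophenoloxidase genes PPO1 and PPO2 made up at least 2% of all unique molecular identifiers (UMIs, each standing for 1 captured mRNA molecule). They were sought among the cells of normal lymph glands at 96 and 120 h after egg laying (AEL) that had 400 to 5000 detected genes and at most 10% of UMIs from mitochondrial genes. Of 21314 such cells, 254 were mature crystal cells, or 1.19%, and they were set against the other 21060 cells of the same libraries. The word mature stands for this rule alone. At both times the rule took more cells than the study counts in its mature crystal cell class, after further filters of its own. How far these cells match the early and mature crystal cell classes of the study was not tested cell by cell. Of the 254 cells, 93 came from 4 libraries of 120 h AEL and 161 from 5 libraries of 96 h AEL. The whole series was a Drop-seq survey of Drosophila larval hemocytes, in which single cells are captured in droplets with barcoded beads. Every library used here came from Oregon-R larvae, with no transgene. Each lymph gland library pooled the dissociated primary lobes of 100 to 150 glands, so a library is a pool of larvae and not 1 animal. The comparisons beyond these 9 libraries used wasp-infested lymph glands at 96 h AEL (4 libraries), normal lymph glands at 72 h AEL (5 libraries), and hemocytes in normal circulation at 96 and 120 h AEL (3 libraries each).

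Crystal cells are the hemocytes that store the prophenoloxidases and release them on rupture, which starts melanization at wounds and around parasites. Prophenoloxidases are copper enzymes. The Runx factor Lozenge (lz), acting with the GATA factor Serpent (srp) and with Notch signaling, commits a hemocyte to this fate. Crystal cells arise in the lymph gland from progenitors (prohemocytes), beside the phagocytic plasmatocytes, and also form among the embryonic-lineage hemocytes that circulate.

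The 9 libraries held between 6068692 and 38244591 UMIs in kept cells, and the crystal cells of a library summed to between 179869 and 374473 UMIs. The median crystal cell had 7825 UMIs, against 6369 in the other cells. Cells above the mean plus 2 SD of their library's UMIs were 28 of the 254 crystal cells, or 11.02%, against 4.20% of the other cells, and the part of doublets in the results was not tested beyond the repeats without these cells. Median mitochondrial shares per library lay between 2.40 and 3.97% in crystal cells and between 2.49 and 4.94% in other cells. In all, 9 barcodes occurred in more than 1 library, and none of them was a crystal cell. At 120 h AEL, library 2 stood apart by heat shock transcripts also in its other cells, with Hsp23 at 7932 CPM (UMIs of the gene per 1000000 UMIs) against at most 2048 CPM in the other cells of any other library.

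The defining transcripts, which chose the cells and are therefore given with no test, came together. All 254 cells had both PPO1 and PPO2 UMIs, and PPO1 exceeded PPO2 in only 20 of them, or 7.87%. Per library, PPO1 made up between 41.4 and 44.9% of the sum of both genes. PPO1 stood between 251 and 507 UMIs per 10,000 in crystal cells and between 0.140 and 0.589 in other cells, and PPO2 between 327 and 696 in crystal cells and between 0.225 and 1.07 in other cells. Within each library the shares of PPO1 and PPO2 ran in parallel across crystal cells, with a Spearman rho between 0.84 and 0.98 over 10 to 55 cells that share a library and a cell's total. PPO3, the prophenoloxidase of lamellocytes, had a UMI in only 2 of the 254 cells.

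At 120 h AEL 77 cells had shares from 0.1 to 0.5% and 24 from 0.5 to 2%, and at 96 h AEL 55 and 56 cells did, and 17872 of the 21060 other cells, or 84.9%, had no PPO1 or PPO2 UMI at all. Among crystal cells the combined share had a median of 7.46% and reached 22.4%. It was higher at 120 h AEL, with a median of 10.2% and quartiles of 5.83 and 14.7%, than at 96 h AEL, with a median of 5.88% and quartiles of 3.46 and 9.58%. The 10 cells just inside the threshold had shares of 2.01 to 2.14%, a median of 3323 UMIs and an lz UMI in 2 cells. The 10 just outside had shares from 1.83% up to just under the threshold, a median of 5986 UMIs and an lz UMI in 1 cell.

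**Figure D1:**
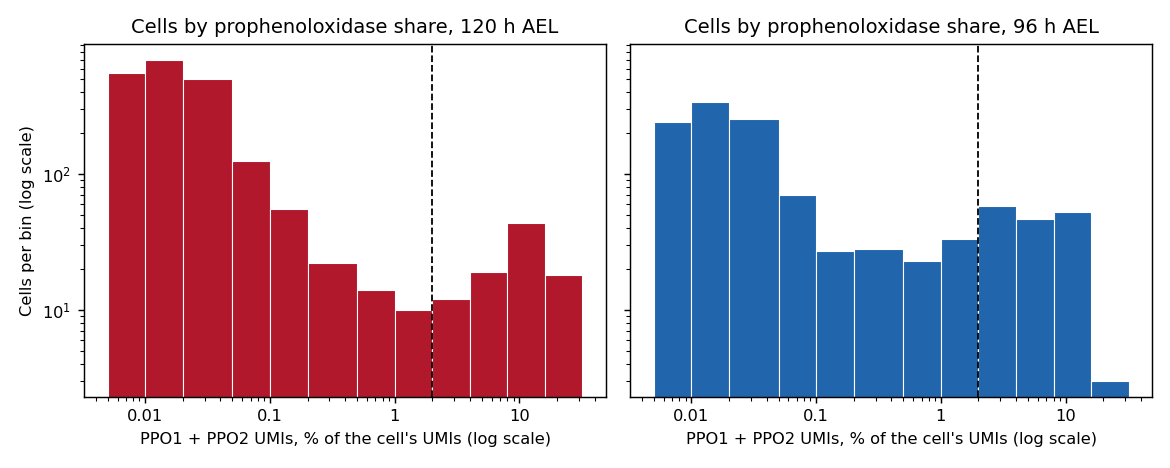
Number of cells (log scale) by the share of PPO1 plus PPO2 in the cell's UMIs in percent (log scale), at 120 h AEL (left) and 96 h AEL (right), for cells with a share of at least 0.005%. The dashed line is the threshold of 2%, to the right of which lie 93 cells at 120 h AEL and 161 at 96 h AEL.

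The label was checked with lz, which the rule did not use. Levels of a class in a library are CPM over its summed UMIs without PPO1 and PPO2. In crystal cells lz was at 259, 246, 176 and 312 CPM at 120 h AEL and at 160, 121, 104, 150 and 206 CPM at 96 h AEL, against at most 1.25 CPM in the other cells of any library. The classes did not overlap, and lz was higher in crystal cells in 9 of 9 libraries (log2 fold change 8.90 ± 0.39 SE, adjusted p = 4.44e-14 by edgeR's quasi-likelihood test with Benjamini-Hochberg adjustment). An lz UMI was seen in 151 of 254 crystal cells, or 59.4%, against 0.280% of the other cells. With every cell thinned to 1000 UMIs, the share was 15.7% ± 7.3 in crystal cells and 0.0634% ± 0.0711 in other cells (SD, n = 9 libraries). At that depth most crystal cells showed no lz transcript, which does not show that they lacked it.

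Against the other cells, the crystal cells were higher in lineage regulators and in selected copper handling genes and metabolic enzymes, and lower in prohemocyte and mitotic genes. Of 6249 genes tested without PPO1 and PPO2, 947 were higher and 1393 lower in crystal cells, with a median log2 fold change of -0.13 over all genes, so 37.4% of genes were called (15.2% higher and 22.3% lower). With total UMIs in place of TMM scaling the split was 619 higher and 1993 lower around a median of -0.39. A fold in a class of pooled cells cannot tell fewer cells of a kind from less RNA per cell, and the levels near 0 in other cells include any free RNA in the droplets.

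The regulators of the lineage rose as a group. Of 22 listed regulators 15 were tested, of which 10 were higher and 1 lower (median log2 fold change 2.12, against -0.13 over all genes). The zinc-finger factor peb (hindsight) ranged from 577 to 1589 CPM in crystal cells and from 3.17 to 13.9 CPM in other cells (log2 fold change 7.53 ± 0.18 SE, adjusted p = 5.50e-19). A second zinc-finger factor, klu (klumpfuss), ranged from 142 to 356 CPM in crystal cells and from 0.791 to 5.19 CPM in other cells (7.45 ± 0.21 SE, adjusted p = 1.35e-17). Neither gene overlapped between the classes in any library.

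Both the Notch receptor and an inhibitor of it were high. N ranged from 577 to 1090 CPM in crystal cells and from 70.0 to 128 CPM in other cells, a log2 fold change of 3.44 ± 0.13 SE. For numb, whose product antagonizes Notch, the ranges were 42.5 to 214 CPM in crystal cells and 1.34 to 5.29 CPM in other cells, a log2 fold change of 5.39 ± 0.24 SE. Su(H), the DNA-binding effector of Notch, rose by a log2 fold change of 2.85 ± 0.44 SE, with 10.5 to 164 CPM in crystal cells and 6.33 to 9.85 CPM in other cells. Of the Notch target genes, E(spl)mbeta-HLH was higher in 9 of 9 libraries (1002 to 2069 CPM in crystal cells, 267 to 529 CPM in other cells) and E(spl)m3-HLH in 8 of 9. The GATA factor gene srp was also expressed in the other cells and was higher in crystal cells, with a median of 242 CPM there and 133 CPM in other cells (1.11 ± 0.14 SE). The Hippo pathway factor gene sd was the listed regulator that fell, with 5.48 to 74.9 CPM in crystal cells and 125 to 264 CPM in other cells (log2 fold change -2.20 ± 0.23 SE).

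The 15 largest rises among genes of at least 50 CPM with the same direction in all 9 libraries were CG9119, CG32335, CG5418, CG6034, Pde1c, NijB, CG15343, Elk, fok, CG17109, lz, CG10467, aay, mthl10 and St3. CG9119 ranged from 1423 to 6722 CPM in crystal cells and from 0.170 to 2.95 CPM in other cells, the largest of these rises (log2 fold change 12.51 ± 0.28 SE, adjusted p = 3.47e-19). The gene fok (fledgling of Klp38B) was the steadiest of them at high level, with 6320 to 9622 CPM in crystal cells and 9.90 to 22.7 CPM in other cells. Pde1c, a calcium- and calmodulin-dependent phosphodiesterase, had a median of 882 CPM in crystal cells and 0.643 CPM in other cells. Elk, a voltage-gated potassium channel, had medians of 92.1 and 0.0995 CPM in the same order. The most abundant of the 15 was CG10467, at 3803 to 33578 CPM in crystal cells and 19.7 to 59.7 CPM in other cells. All 15 stayed at or below 59.7 CPM in the other cells of every library.

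**Figure D2:**
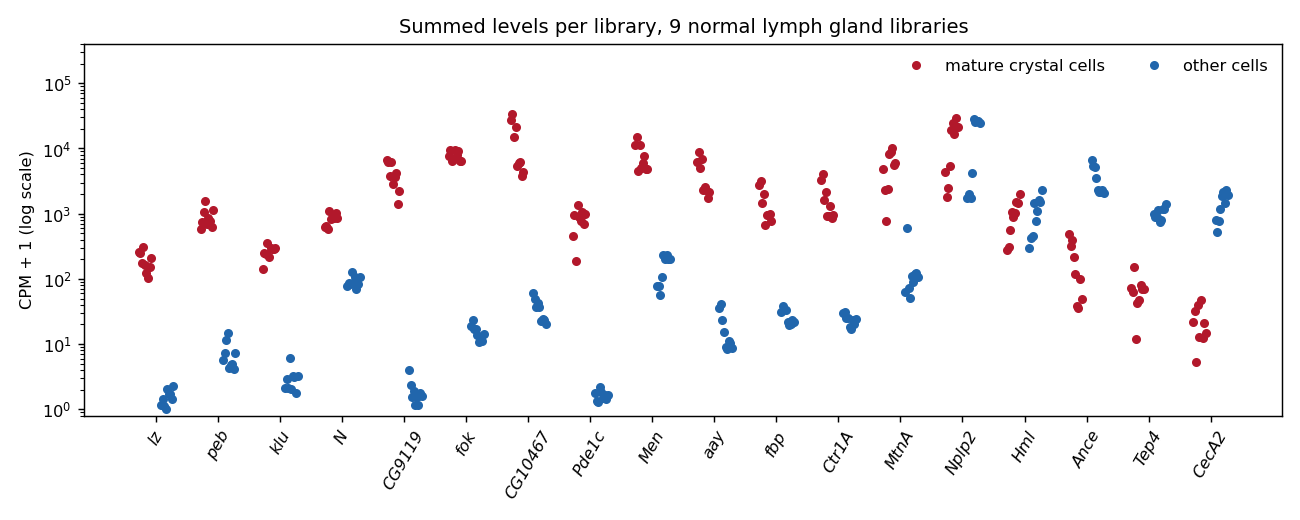
CPM plus 1 (log scale) of 18 genes in mature crystal cells (left, red) and other cells (right, blue) of the 9 normal lymph gland libraries, 1 point per library. For lz, peb and klu the classes are apart in every library, Nplp2 and Hml overlap, and Ance, Tep4 and CecA2 are lower in crystal cells.

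Among genes of copper handling, Ctr1A, Atox1 and MtnA stood out. Of 14 listed genes of copper and metal handling 10 were tested, with 5 higher and 1 lower (median log2 fold change 0.93). The 5 include the ferritin subunits below, and the 4 genes not called were other listed genes of copper handling. The copper importer Ctr1A ranged from 853 to 4052 CPM in crystal cells and from 15.98 to 29.7 CPM in other cells (6.34 ± 0.22 SE, adjusted p = 4.85e-16). The copper chaperone Atox1 ranged from 2191 to 4938 CPM in crystal cells and from 67.8 to 134 CPM in other cells (5.49 ± 0.14 SE, adjusted p = 1.46e-18). The metallothionein MtnA, a copper-binding protein, ranged from 762 to 10225 CPM in crystal cells and from 50.3 to 596 CPM in other cells (5.71 ± 0.40 SE, adjusted p = 2.03e-10). The ferritin subunits Fer1HCH and Fer2LCH rose less, by log2 fold changes of 1.197 and 0.67, and the metal transporter Mvl fell.

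Central metabolism was changed at selected enzymes and not along whole pathways. The malic enzyme gene Men ranged from 4524 to 15050 CPM in crystal cells and from 55.1 to 234 CPM in other cells (log2 fold change 5.96 ± 0.36 SE). The gluconeogenic fructose bisphosphatase fbp ranged from 663 to 3183 CPM in crystal cells and from 18.8 to 37.5 CPM in other cells (5.99 ± 0.20 SE). For aay, the phosphoserine phosphatase of serine synthesis, the ranges were 1768 to 8930 CPM in crystal cells and 7.32 to 39.9 CPM in other cells (8.27 ± 0.17 SE). Each of these enzymes was higher in crystal cells in 9 of 9 libraries.

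Of 11 glycolytic genes tested, 3 were higher (Ald, Eno and Pfk) and 6 lower (Hex-A, Tpi, Gapdh1, Gapdh2, Pgk and PyK). Aldolase rose most, at 2885 to 5151 CPM in crystal cells and 209 to 381 CPM in other cells, whereas Pgk had a log2 fold change of -0.65 ± 0.20 SE. In the pentose phosphate and NADPH list, 5 of 10 genes tested were higher and 2 lower, among them phosphogluconate dehydrogenase (Pgd, 2.48 ± 0.24 SE) and Zw, which encodes glucose phosphate dehydrogenase (1.89 ± 0.34 SE). With total UMIs as scale, 4 of the 10 were higher and 4 lower. Antioxidant enzymes split, with 5 of 14 higher and 6 lower. The peroxiredoxin Jafrac1 ranged from 2167 to 8231 CPM in crystal cells and from 224 to 772 CPM in other cells, whereas PHGPx and GstD1 were among those that fell.

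All 14 crystal cell genes that the study names were higher (median log2 fold change 6.69). Since the study picked them from these libraries, that count is no independent evidence. CAH2, a carbonic anhydrase, ranged from 22.0 to 162 CPM in crystal cells and from 0 to 1.68 CPM in other cells. The insulin-like peptide gene Ilp6 was among the weakest, higher in 6 of 9 libraries (1.41 ± 0.31 SE, adjusted p = 9.01e-04).

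Beyond the prophenoloxidases, the listed melanization enzymes and their serpins were not high. Of 17 listed genes 6 were tested, none higher and 4 lower (MP1, Spn27A, Spn28Dc and yellow-f). Spn27A, which inhibits the melanization cascade, had 12.6 to 124 CPM in crystal cells and 144 to 479 CPM in other cells (log2 fold change -1.06 ± 0.25 SE). MP1, a melanization protease, had a log2 fold change of -1.29 ± 0.25 SE.

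By the same rule the 10 largest falls, of which 4 are cecropin genes encoding antimicrobial peptides, were CG15550, CG15423, IM18, CecA2, CecB, CecA1, CecC, CR43855, CG3348 and CG12522. CecA2 ranged from 4.40 to 46.0 CPM in crystal cells and from 520 to 2287 CPM in other cells (log2 fold change -5.79 ± 0.27 SE, adjusted p = 9.45e-14). CecC ranged from 4.40 to 60.4 CPM in crystal cells and from 497 to 2083 CPM in other cells. The cecropin genes are close paralogs, and the counting could share reads between them. No UMI of CG15550 or CG15423 was found in the crystal cells of any library, and set against a floor of 3 UMIs over all crystal cells, they were at least 82.6-fold and 56.2-fold lower than in other cells.

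Prohemocyte and mitosis genes were low as groups. Of 6 prohemocyte markers tested 5 were lower and none higher. Tep4 ranged from 10.96 to 149.8 CPM in crystal cells and from 732 to 1417 CPM in other cells, and Ance, a peptidase gene, from 34.6 to 485 CPM in crystal cells and from 2049 to 6688 CPM in other cells. All 12 mitosis genes tested were lower (median log2 fold change -2.13), with CycB at 0 to 3.49 CPM in crystal cells and 6.84 to 34.2 CPM in other cells. Of 12 DNA replication genes tested, 1 was lower (geminin) and 11 were not called, so mitotic and replication genes did not move alike.

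Plasmatocyte markers were present in crystal cells at close to the level of the other cells. Of 16 tested, 1 was higher (crq) and 6 were lower (NimC1, eater, lectin-24A, LanA, LanB1 and LanB2). Hml ranged from 272 to 2020 CPM in crystal cells and from 292 to 2266 CPM in other cells, with a log2 fold change of 0.16 ± 0.10 SE and an adjusted p of 0.235. Pxn ranged from 81.9 to 897 CPM in crystal cells and from 273 to 690 CPM in other cells (0.28 ± 0.18 SE, adjusted p = 0.234). At 1000 UMIs per cell, Hml was seen in 47.0% ± 22.2 of crystal cells and 51.0% ± 18.3 of other cells (SD, n = 9). At 2000 UMIs the order was reversed, with 71.8% ± 22.8 of crystal cells and 64.2% ± 16.7 of other cells. Pxn was seen in 37.9% of crystal cells and 31.7% of other cells at 1000 UMIs, and in 56.0 and 46.0% at 2000 UMIs. The summed level of the 16 markers was 23163 to 36222 CPM in crystal cells at 96 h AEL and 31302 to 33934 CPM in the other cells, and 3447 to 9337 CPM in crystal cells at 120 h AEL and 6152 to 11606 CPM in the other cells. Whether these UMIs came from the crystal cells themselves, from free RNA or from doublets was not tested. The study describes such markers in its early crystal cell class and their absence in its mature one. At either time the study counts fewer cells in its mature class than the rule took. At 120 h AEL the rule took more cells than both crystal cell classes of the study hold together. The study's counts followed further cell filters, and which cells taken here belong to that early class was not tested. Of 15 markers of dorsal vessel, ring gland, neuron and fat body, none passed the filter for low counts, and their summed level was at most 8.81 CPM in the crystal cells of any library. Of the signaling center markers, Antp had no UMI in crystal cells, against 4.02 to 13.4 CPM in other cells, and kn averaged 0.320 CPM in crystal cells and 12.3 CPM in other cells, while mthl7 and chrb were also lower and Ilp6, the fifth gene tested, was higher. Of 6 adipohemocyte and GST-rich markers tested, Lsd-2 and E23 were higher, LpR2 was lower and 3 were not called.

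Ribosomal protein genes were higher in crystal cells. Of 85 ribosomal protein genes tested, 80 were higher and none lower (median log2 fold change 0.39), and 49 were higher and 1 lower with total UMIs as scale. At 96 h AEL the 91 listed genes summed to 379999 to 409077 CPM in crystal cells and 354685 to 383461 CPM in other cells. These ranges overlapped, whereas at 120 h AEL 427584 to 430959 CPM in crystal cells lay above 366788 to 409428 CPM in other cells. Of 17 vacuolar ATPase subunits, 11 were higher and 1 lower (median 0.38), and 4 were higher and 2 lower with total UMIs as scale. The summed level of the 33 listed subunits overlapped between the classes, at 3670 to 5311 CPM in crystal cells and 3696 to 4019 CPM in other cells at 96 h AEL, and at 4477 to 5533 CPM in crystal cells and 4299.6 to 5740 CPM in other cells at 120 h AEL.

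Heat shock transcripts, which can mark stress during dissociation, also differed between the classes. Of 9 heat shock and dissociation stress genes tested, 5 were higher (Hsp23, Hsp26, Hsp68, Hsp83 and DnaJ-1) and 2 lower (stv and Jra), with a median log2 fold change of 1.86. The summed level of the 15 listed genes was 4566 to 13376 CPM in crystal cells and 1515 to 2689 CPM in other cells at 96 h AEL, without overlap. At 120 h AEL it was 3497 to 28682 CPM in crystal cells and 2472 to 21032 CPM in other cells, which overlapped. The chaperone gene Hsp83 ranged from 1425 to 5282 CPM in crystal cells and from 548 to 1980 CPM in other cells. The part of dissociation stress in the other class differences was not tested.

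At equal depth fewer genes were detected per crystal cell than per other cell. This number also falls where a few abundant transcripts take more of the UMIs, so it does not show that fewer genes were expressed. With every cell thinned to 1000 UMIs without PPO1 and PPO2, the mean number of genes was 417 ± 28.3 in crystal cells and 472 ± 8.15 in other cells (SD, n = 9 libraries). Crystal cells were lower in 9 of 9 libraries (exact two-sided sign-flip permutation test, p = 0.00391, the smallest that 9 libraries allow). The difference at 2000 UMIs was -108 genes.

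Other transcripts differed in level between cells of different prophenoloxidase share. Since the rule cuts on that share, the levels are a description for each time, with no test, and give no order of events. At 120 h AEL lz was at 102 CPM (95% exact Poisson interval 55.8 to 171) in cells of 2 to 5%, at 294 CPM (227 to 376) at 5 to 10% and at 265 CPM (219.7 to 317) at 10% and over, and at 96 h AEL at 108, 177 and 189.97 CPM. For peb the levels were 809, 1048 and 992 CPM at 120 h AEL and 572, 1032 and 1008 CPM at 96 h AEL in the same classes. CG9119 was at 109, 634 and 9831 CPM at 120 h AEL and at 51.6, 1993 and 9136 CPM at 96 h AEL, and Men at 969, 5037 and 15354 CPM at 120 h AEL and 1554, 5158 and 14105 CPM at 96 h AEL. Between the lowest and the highest class CG9119 and Men thus differed by more than peb at both times. The 3 classes held 17, 27 and 49 cells at 120 h AEL and 73, 49 and 39 at 96 h AEL, and the intervals cover counting error only.

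MtnA differed between the times within the same share, with 36.4, 64.3 and 4614 CPM at 120 h AEL and 785, 5452 and 23862 CPM at 96 h AEL. Below the threshold, cells with a share of 0.5 to 2% had peb at 92.4 CPM at 120 h AEL and 187 CPM at 96 h AEL, against 8.51 and 2.65 CPM in cells under 0.1% at the same times. Hml ran the other way within crystal cells, with 300.4 CPM at 120 h AEL and 739 CPM at 96 h AEL in cells of 10% and over, against 867 and 1693 CPM in cells of 2 to 5%.

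**Figure D3:**
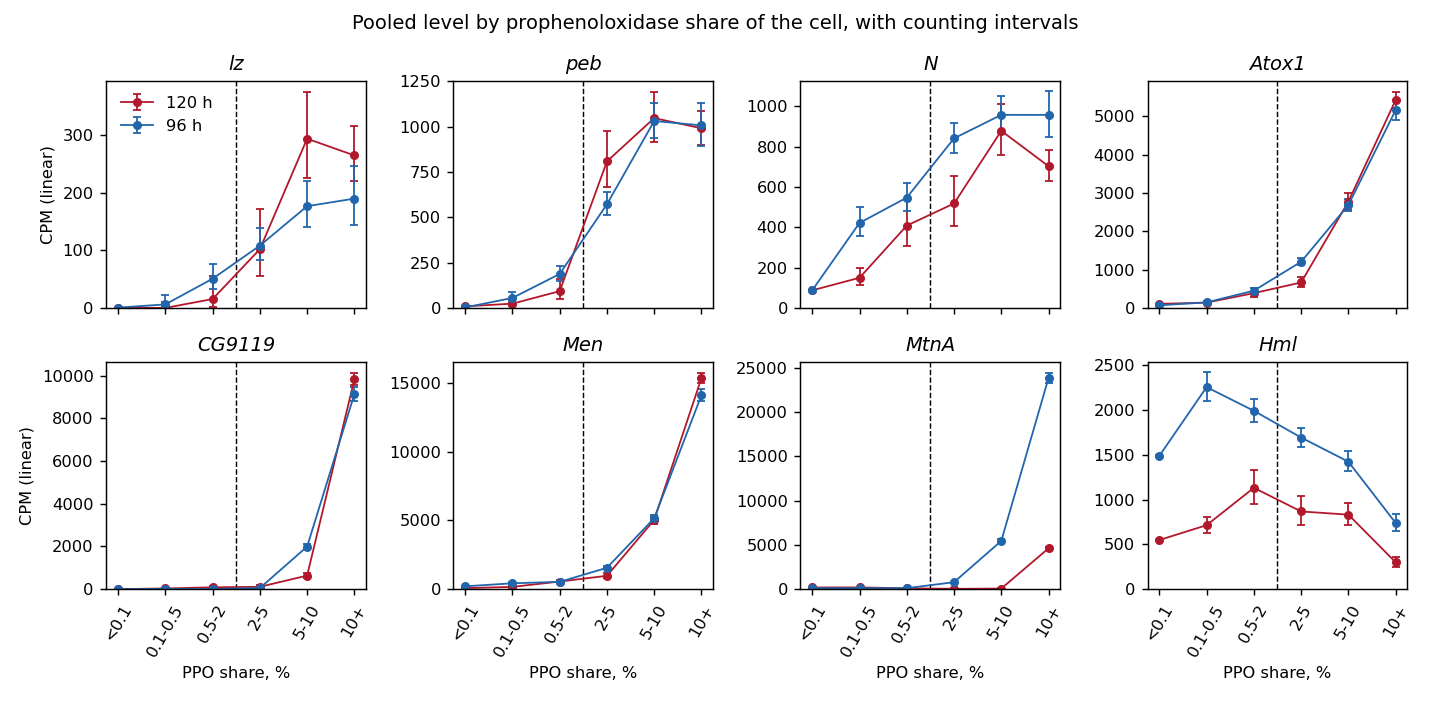
Pooled CPM (linear axes from 0) of 8 genes by the PPO1 plus PPO2 share of the cell in percent, at 120 h AEL (red) and 96 h AEL (blue), with 95% exact Poisson intervals. Right of the dashed line (2%) are the crystal cells, where lz and peb level off by 5 to 10% and CG9119, Men and MtnA are highest at 10% and over.

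Mature crystal cells made up a smaller share of the lymph gland at 120 h than at 96 h AEL. The share was 1.01, 0.849, 0.495 and 1.14% of kept cells in the 4 libraries of 120 h AEL and 1.58, 1.52, 1.58, 1.79 and 1.72% in the 5 libraries of 96 h AEL. The times did not overlap, with a mean of 0.873% ± 0.279 at 120 h AEL and 1.64% ± 0.11 at 96 h AEL (SD, n = 4 and 5, exact two-sided permutation test, p = 0.0159, the smallest this design allows). A share is relative to all kept cells, so fewer crystal cells and more of the others cannot be told apart. With a threshold of 4% the difference was -0.34 percentage points and did not pass (exact permutation test, p = 0.0952).

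At matched age, few such cells were found in infested lymph glands. The shares at 96 h AEL were 0.237, 0.0551, 0.0221 and 0.0596% in infested glands, which stand for 5, 1, 1 and 1 cells, against 1.64% ± 0.11 in normal glands (SD, n = 5). The groups did not overlap (exact permutation test, n = 4 and 5, p = 0.0159, adjusted p = 0.0317 over 4 comparisons). The infested tables hold 10179 barcodes, the study's count after its filters, and the normal ones of 96 h AEL 10027, its count before them. Filtered barcodes were thus set against unfiltered ones. Without cells over the mean plus 2 SD of UMIs the difference was -1.43 percentage points (exact permutation test, p = 0.0159). At 96 h AEL the share also exceeded that of 72 h AEL, where 3 cells of 1 library qualified and the other 4 libraries had none (exact permutation test, n = 5 each, p = 0.00794, adjusted p = 0.0317). With 141 to 619 kept cells, a count of 0 allows a share of up to 0.485 to 2.13% in those 4 libraries.

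In circulation the same gate took a larger mean share at both times, and the difference passed only at 96 h AEL. The cell filters kept 856 of 1108 circulating barcodes at 96 h AEL and 1582 of 1832 at 120 h AEL. In lymph glands they kept 9830 of 10027 and 11484 of 11702 barcodes at the same times. The part of this unequal filtering in the shares was not tested. At 96 h AEL the mean was 1.64% ± 0.11 in lymph glands (n = 5) and 10.3% ± 7.8 in circulation (SD, n = 3, exact permutation test, p = 0.0357, adjusted p = 0.0476). At 120 h AEL it was 0.873% ± 0.279 in lymph glands (n = 4) and 4.01% ± 2.05 in circulation (n = 3), where the exact permutation test gave p = 0.0571, the smallest the design allows. The 3 circulating libraries of 96 h AEL were far apart, at 11.6, 17.3 and 1.86%. Leaving out library 1, 2 or 3 of them gave differences of -7.95, -5.11 and -12.8 percentage points, and with any 1 library of either tissue left out the test could not go below p = 0.0571 (exact permutation test).

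**Figure D4:**
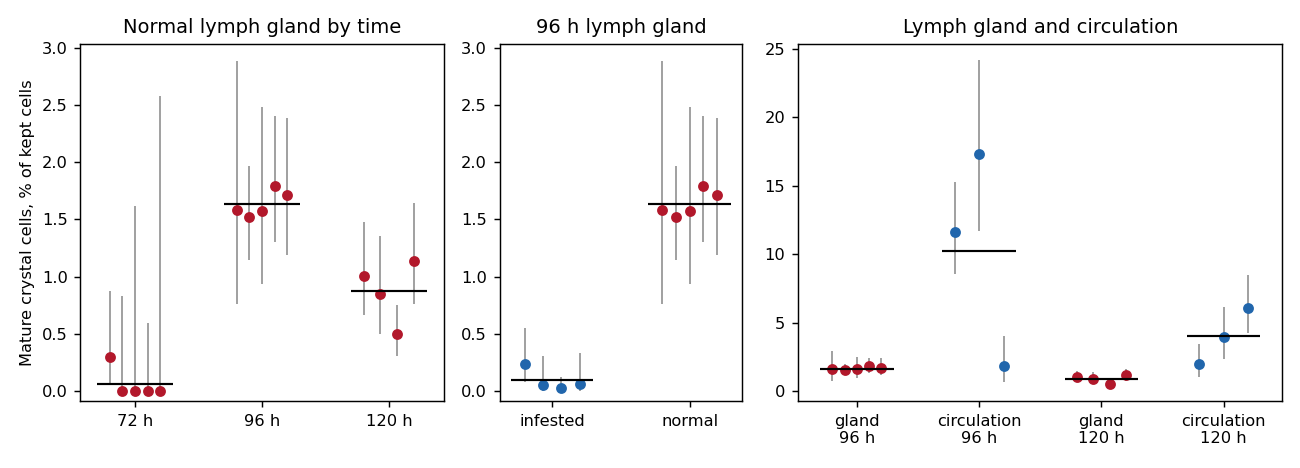
Share of mature crystal cells among kept cells in percent, 1 point per library with its exact 95% binomial interval (grey) and the mean of each group (black line), on separate axes for normal lymph glands by time, infested and normal glands at 96 h AEL, and lymph gland and circulation. The libraries of 96 h AEL lie between 1.52 and 1.79%, above all 4 of 120 h AEL and all 4 infested ones.

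The crystal cells of 120 h AEL were next set against those of 96 h AEL. Of 1947 genes tested in the crystal cells alone, 300 were higher and 266 lower at 120 h AEL (median log2 fold change -0.01), so 29.1% were called (15.4% higher and 13.7% lower). With total UMIs as scale the split was 158 higher and 436 lower around a median of -0.29. Crystal cells of 120 h AEL also had a higher median prophenoloxidase share, and with the 4% threshold, 119 genes were higher and 169 lower. In place of 566 genes, 339 and 377 were called without library 4 or 5 of 96 h AEL and 355 without library 1 of 120 h AEL.

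The 8 largest rises with no overlap between times were Cpr66Cb, CR43051, Oscillin, alpha-Est5, CG33926, cer, CG6762 and TwdlE. The gene cer (crammer), which encodes an inhibitor of cysteine proteases, was at 2586, 2641, 1603 and 1425 CPM at 120 h AEL and at 237, 279, 219, 221 and 304 CPM at 96 h AEL (log2 fold change 3.36 ± 0.26 SE, adjusted p = 8.27e-06). Oscillin, a glucosamine phosphate isomerase, was at 1429, 605, 736 and 225 CPM at 120 h AEL and at 35.5, 43.2, 57.7, 39.7 and 76.8 CPM at 96 h AEL (4.19 ± 0.46 SE). The cuticular gene Cpr66Cb was at 93.1 to 416 CPM at 120 h AEL and at most 6.98 CPM at 96 h AEL, and TwdlE, of the Tweedle cuticle family, at 186 to 518 CPM at 120 h AEL and 11.5 to 62.3 CPM at 96 h AEL. The lack of overlap between the times was a condition for naming these 8 genes.

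Several genes high in crystal cells rose further with time. For aay the levels were 6233, 8930, 5039 and 6855 CPM at 120 h AEL and 2280, 2564, 2298, 1768 and 2121 CPM at 96 h AEL (log2 fold change 1.94 ± 0.21 SE, adjusted p = 1.06e-04). CG15343 was at 18394, 14457, 10369 and 7030 CPM at 120 h AEL and at 1525 to 3769 CPM at 96 h AEL, and CG10467 at 15038 to 33578 CPM at 120 h AEL and 3803 to 6114 CPM at 96 h AEL. Ctr1A was at 3238, 4052, 1612 and 2153 CPM at 120 h AEL and at 853 to 1334 CPM at 96 h AEL (1.82 ± 0.29 SE, adjusted p = 0.00109), and fbp rose by a log2 fold change of 1.76 ± 0.27 SE. Of the 14 study-named genes 8 were higher and none lower, with 5 to 9 higher and 0 to 1 lower over the other settings.

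Among the regulators, lz was higher at 120 h AEL (log2 fold change 1.04 ± 0.25 SE, adjusted p = 0.00908), although the 4 libraries of 120 h AEL (176 to 312 CPM) overlapped the 5 of 96 h AEL (104 to 206 CPM). The call for lz was lost with at least 20 cells a library (adjusted p = 0.0759). The Notch inhibitor numb was higher too, at 96.9 to 214 CPM at 120 h AEL and 42.5 to 118 CPM at 96 h AEL (SE of the log2 fold change 0.35, adjusted p = 0.0204), and its call was lost with at least 20 cells a library (adjusted p = 0.106), at the 4% threshold (adjusted p = 0.109), with total UMIs as scale (adjusted p = 0.0533), with the replicate block (adjusted p = 0.0554) and without library 4 or 5 of 96 h AEL or library 4 of 120 h AEL. N had a log2 fold change of 0.01 ± 0.21 SE and klu of 0.10 ± 0.25 SE, and neither was called.

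**Figure D5:**
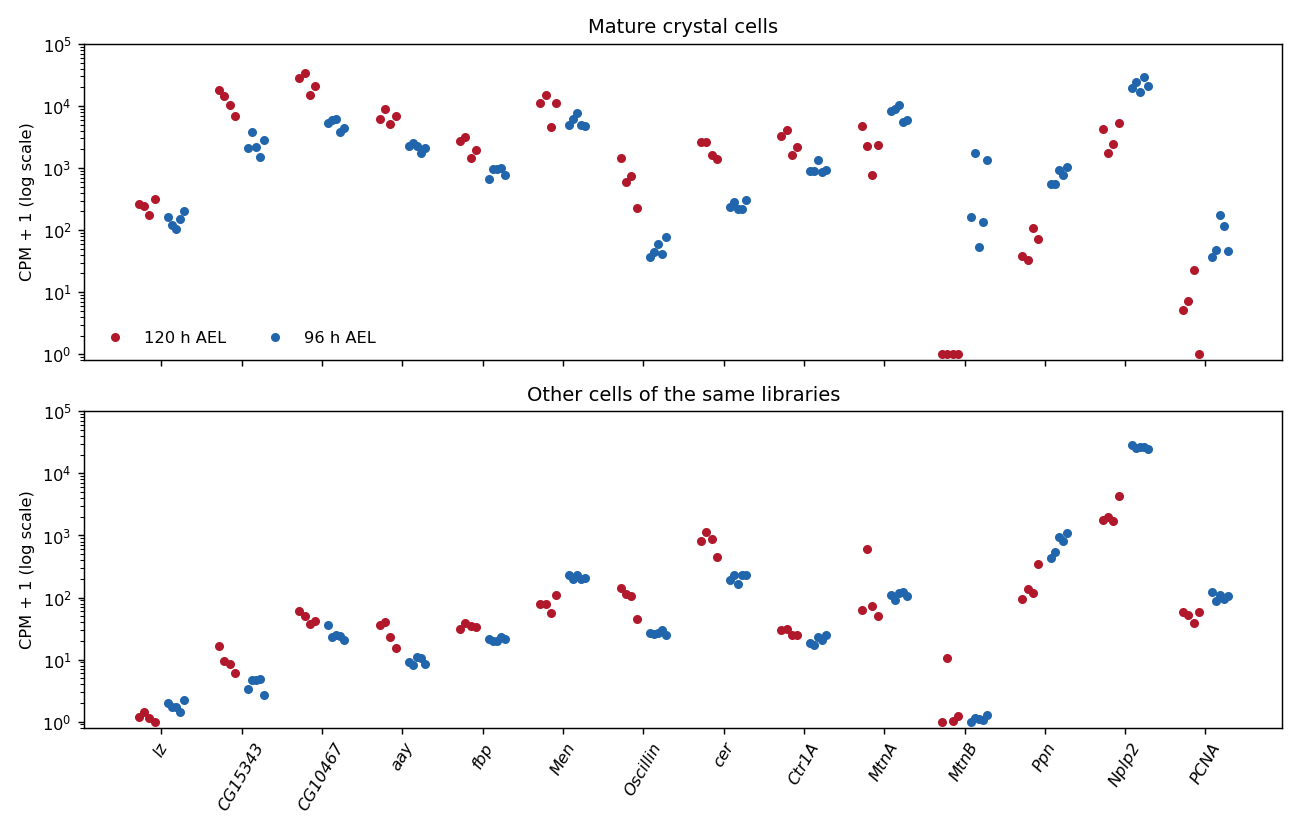
CPM plus 1 (log scale) of 14 genes at 120 h AEL (left, red) and 96 h AEL (right, blue), 1 point per library, in mature crystal cells (top) and other cells (bottom). In crystal cells cer, aay and CG15343 are higher and MtnA, MtnB, Ppn, Nplp2 and PCNA lower at 120 h AEL, and cer and Nplp2 move the same way in other cells.

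The 8 largest falls were MtnB, CG34054, CG31832, Ppn, CG5418, Claspin, PCNA and CG42846. MtnB, a metallothionein, had no UMI in crystal cells of 120 h AEL, and at 96 h AEL it was at 160, 1718, 52.0, 136 and 1357 CPM. Against a floor of 3 UMIs over all crystal cells of 120 h AEL, its level was at least 217-fold lower than at 96 h AEL. MtnB had 27, 597, 9, 48 and 389 UMIs in libraries 1 to 5 of 96 h AEL, and without library 2 the bound was 129.7-fold. MtnA was at 4763, 2294, 762 and 2362 CPM at 120 h AEL and at 8301, 8859, 10225, 5594 and 6043 CPM at 96 h AEL (log2 fold change -1.28 ± 0.40 SE, adjusted p = 0.0291). MtnA and MtnB thus fell where the copper importer and chaperone rose.

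The DNA replication genes PCNA, Claspin and RnrS also fell, 3 of the 4 tested from that list. PCNA was at 4.18, 6.30, 22.0 and 0 CPM at 120 h AEL and at 35.5, 46.0, 173, 116 and 45.4 CPM at 96 h AEL (-2.91 ± 0.73 SE, adjusted p = 0.0115). Of 14 plasmatocyte markers tested, 7 were lower and none higher. The matrix gene Ppn (papilin) was at 37.6, 31.5, 106 and 71.2 CPM at 120 h AEL and at 562, 552, 924, 760 and 1050 CPM at 96 h AEL (-3.36 ± 0.33 SE, adjusted p = 6.43e-05). Nplp2 was at 1777 to 5414 CPM at 120 h AEL and 16708 to 29554 CPM at 96 h AEL, beside 1733 to 4271 and 24522 to 28541 CPM in the other cells of the same times. Of 83 ribosomal protein genes 59 were higher and none lower at 120 h AEL, a count that ranged from 8 to 65 over the other settings tried.

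Whether the time change was that of the lymph gland at large was asked by an interaction, the log2 change with time in crystal cells minus that in the other cells of the same libraries. Of 6882 genes 109 had a positive and 192 a negative interaction, 4.37% in all (1.58% positive and 2.79% negative), around a median of -0.23. With DESeq2 the split was 106 positive and 109 negative, and with RLE size factors 139 and 140. Without library 3 of 120 h AEL, 454 genes were called in place of 301.

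Several crystal cell enzymes changed differently from the other cells. Men had an interaction of 2.36 ± 0.21 SE (adjusted p = 2.73e-11). In crystal cells it was at 4524 to 15050 CPM at 120 h AEL and 4790 to 7679 CPM at 96 h AEL, with overlap. Men fell in other cells, to 55.1 to 108 CPM at 120 h AEL from 200.1 to 234 CPM at 96 h AEL. In the share classes above, Men was higher at 120 h AEL only in the highest class. The part of the mix of shares in its interaction was not tested. Between times in crystal cells alone, the call for Men was lost at the 4% threshold (adjusted p = 0.110). That call was also lost with at least 20 cells a library (adjusted p = 0.0574) and with the replicate block (adjusted p = 0.0691). Jafrac1 had an interaction of 2.37 ± 0.21 SE, Ald of 1.35 ± 0.19 SE and CG10467 of 1.39 ± 0.19 SE. Between times in crystal cells alone, no antioxidant gene tested rose by more than a log2 fold change of 1.30. No glycolytic gene tested rose by more than 0.87. The interactions of Jafrac1 and Ald were thus larger than their rises in crystal cells alone. Ctr1A was positive (1.08 ± 0.23 SE, adjusted p = 0.00166) and MtnA negative (-1.71 ± 0.42 SE, adjusted p = 0.00750). By contrast aay (0.08 ± 0.22 SE) and CG9119 (-0.13 ± 0.31 SE) were not called. Of 16 plasmatocyte markers 10 were negative and 1, Nplp2, positive, and none of the 85 ribosomal protein genes was called.

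The 5 largest positive interactions by the naming rule were CG12974, AcCoAS, Ance-4, CR43051 and CG33695, and the 5 largest negative ones were MtnB, MtnD, CG31832, Ect3 and Jabba. The call for CG33695 was lost with at least 20 cells a library (adjusted p = 0.292) and without library 2 of 120 h AEL, where its value was 1.93 in place of 2.91 (adjusted p = 0.141). CG31832 was lost without library 1 of 120 h AEL (adjusted p = 0.148) and MtnD with DESeq2 (adjusted p = 0.0727). MtnD had 1, 114, 5, 7 and 2 UMIs in crystal cells of libraries 1 to 5 of 96 h AEL. Ance-4 was at 56.7 to 154 CPM at 120 h AEL and 29.6 to 173 CPM at 96 h AEL in crystal cells, whereas the other cells had 2.11 to 5.404 CPM at 120 h AEL and 17.1 to 21.8 CPM at 96 h AEL. Jabba, a lipid droplet protein gene, was at 6.30 to 66.1 CPM at 120 h AEL and 2.83 to 5.92 CPM at 96 h AEL in crystal cells, whereas the other cells had 68.9 to 249.6 CPM at 120 h AEL and 0.67 to 2.44 CPM at 96 h AEL. In both genes the other cells of the 2 times did not overlap. CG31832 was at most 6.30 CPM at 120 h AEL and between 11.8 and 142 CPM at 96 h AEL in crystal cells and at most 0.261 CPM in other cells, so its fall was seen in crystal cells.

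The crystal cells of the lymph gland were also set against the 133 cells of the same gate in 5 libraries of normal circulation, of which 1 more, with 6 cells, was not used. Median prophenoloxidase shares in circulation were 3.96 to 7.47%, against 4.16 to 12.1% in lymph glands. Of 2319 genes tested with time in the model, 351 were higher and 419 lower in lymph gland crystal cells (median log2 fold change -0.05), so 33.2% were called (15.1% higher and 18.1% lower). With total UMIs as scale the split was 189 higher and 800 lower around a median of -0.43. Tissue and preparation cannot be told apart here.

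Of 10 crystal cell regulators tested, 6 were higher in the lymph gland and 1, sima, lower, with 3 to 7 higher and 0 to 2 lower over the other settings. The 8 largest rises with no overlap were hth, PGRP-LF, jdp, CG2017, corn, Gadd45, CG43064 and tx. The homeodomain factor hth (homothorax) was at 53.3 to 125 CPM in lymph gland crystal cells and at 14.1, 28.5, 0, 2.09 and 0 CPM in circulating ones (log2 fold change 4.02 ± 0.52 SE, adjusted p = 2.38e-05). PGRP-LF, a negative regulator of peptidoglycan sensing, was at 115 to 497 CPM in lymph gland cells and at 23.5, 38.0, 52.6, 39.6 and 60.5 CPM in circulating ones (3.06 ± 0.33 SE). The Notch target E(spl)mbeta-HLH was at 1002 to 2069 CPM in lymph gland cells and at 362 to 799 CPM in circulating ones (1.53 ± 0.19 SE).

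Of the 14 study-named genes 11 were higher in the lymph gland and 1, CAH2, lower, with 8 to 11 higher and 1 to 2 lower over the other settings. Among these, Men was lost with at least 20 cells a library (adjusted p = 0.0784), with total UMIs as scale (adjusted p = 0.067) and without circulating library 2 of 96 h AEL or 1 or 3 of 120 h AEL (adjusted p from 0.0554 to 0.0633), and Oscillin with at least 20 cells a library (adjusted p = 0.123). The study named Arc2, Oscillin, aay and fbp as higher in lymph gland crystal cells, and Pde1c, CAH2 and CG10424 (Naxd) as higher in circulating ones. It drew these from the same contrast, partly in these libraries, so the count over the 14 genes is no independent evidence. CAH2 was at 22.0 to 162 CPM in lymph gland cells and at 264, 456, 327, 338 and 226 CPM in circulating ones (-1.66 ± 0.33 SE, adjusted p = 8.89e-04). MtnA was at 762 to 10225 CPM in lymph gland cells and at 179, 1708, 26.3, 39.6 and 57.3 CPM in circulating ones (3.94 ± 1.04 SE, adjusted p = 0.00750). All 5 genes of metal handling tested were higher, and 2 of 5 with total UMIs as scale. The call for lz (0.72 ± 0.26 SE, adjusted p = 0.0387) was lost with total UMIs as scale (adjusted p = 0.266), and so was that for peb (adjusted p = 0.258). For peb the call was also lost with the replicate block (adjusted p = 0.133), without cells over the mean plus 2 SD of UMIs (adjusted p = 0.0885), with at least 20 cells a library (adjusted p = 0.0651) and without library 4 of 120 h AEL or circulating library 2 of 96 h AEL or 3 of 120 h AEL (adjusted p from 0.0556 to 0.0765). For lz it was also lost at the 4% threshold (adjusted p = 0.0549) and with at least 20 cells a library (adjusted p = 0.0643). Without library 5 of 96 h AEL, library 1, 2 or 4 of 120 h AEL, or circulating library 1 of 96 h AEL or 1 or 3 of 120 h AEL, the adjusted p of lz lay between 0.0545 and 0.0947.

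Lymph gland crystal cells were lower in plasmatocyte markers and in the lipid droplet gene Lsd-2. The 8 largest falls were 28SrRNA-Psi:CR45855, CG4829, fat-spondin, ena, CG33978, Lsd-2, Ten-m and CG8501. Lsd-2, a lipid droplet perilipin, was at 40.4 to 158 CPM in lymph gland cells and at 532, 802, 785, 615 and 812 CPM in circulating ones (-2.84 ± 0.28 SE, adjusted p = 7.45e-06). Of 15 plasmatocyte markers 12 were lower and none higher in the lymph gland (median log2 fold change -1.45). Pxn was at 81.9 to 897 CPM in lymph gland cells and at 1619, 1215, 1806, 2367 and 1994 CPM in circulating ones (-1.72 ± 0.27 SE, adjusted p = 1.33e-04). The summed level of the 16 listed plasmatocyte markers was 3447 to 36222 CPM in lymph gland crystal cells and 17761 to 43942 CPM in circulating ones, and the part of free plasmatocyte RNA in this was not tested.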

How the data were processed

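Drop-seq libraries had been aligned by the authors with STAR 2.5.3a to a BDGP6 genome, per the labels. The deposited values are raw counts of UMIs per gene and cell barcode, 1 table per library, with no normalization. By their barcode counts, the infested lymph gland tables had passed the study's cell filters and the normal lymph gland tables had not. The members, gene lists and comparisons were chosen with earlier results of these data known. Counts were summed per library and class, without PPO1 and PPO2, for libraries with at least 10 crystal cells. Sums were tested with edgeR 4.0.16 (filterByExpr, TMM, glmQLFit and glmQLFTest, Benjamini-Hochberg threshold 0.05) in R 4.3.3, with library as a block between classes. DESeq2 1.42.0 was an alternative. The scripts were tested on simulated data. Shares and gene numbers were tested over libraries by exact permutation (scipy 1.17.1). The text names PPO1, PPO2, lz, the study's crystal cell genes, list genes a paragraph describes, and the genes with the largest fold each way that passed the threshold, averaged 50 CPM or more in 1 group and kept 1 direction in every library or did not overlap. Libraries are labelled biological replicates. Doublets were not removed: Scrublet (scanpy 1.11.5) called 51 of 21314 cells (0.239%), so its 5% highest scores were left out only as an alternative. List genes were matched by symbol and RefSeq synonyms, and 4 entries were not matched. No sequence is given. Infested circulation libraries were not used here.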

Additional observations from a re-analysis of the deposited data

Results flagged for a closer look

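Values were looked at again where 1 library lay far from the rest of its group. Of 114 groups of 4 or 5 libraries examined this way, 17 had such a library. This count was not set against a chance rate, because some of the levels are low counts with 0 in the other libraries. At 120 h AEL the values of CG34054 and IM18 rest on very few UMIs. In crystal cells of 120 h AEL these were AcCoAS (322 CPM in library 1), CG33695 (151 CPM in library 2), CG34054 (4.40 CPM in library 3 and 0 in the others), CG5418 (91.9 CPM in library 1), CR43051 (501 CPM in library 1), CR43855 (172 CPM in library 3), CecB (33.4 CPM in library 1), Elk (170.2 CPM in library 2) and IM18 (4.18 CPM in library 1 and 0 in the others). In crystal cells of 96 h AEL they were CAH2 (162 CPM in library 3), CG33926 (54.7 CPM in library 2), CecA2 (46.0 CPM in library 2), CecC (60.4 CPM in library 2), Claspin (167 CPM in library 3), IM18 (20.1 CPM in library 2), MtnD (328 CPM in library 2) and alpha-Est5 (20.1 CPM in library 2).

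The change with time differed between crystal cells and other cells, by the interaction test in edgeR, for the 10 genes named in the report. The interaction on the log2 scale was 5.56 for CG12974, 5.03 for AcCoAS, 3.14 for Ance-4, 3.04 for CR43051, 2.91 for CG33695, -5.27 for CG31832, -4.25 for Ect3 and -4.07 for Jabba. MtnB and MtnD had no UMI in crystal cells of 120 h AEL, and averaged 685 and 77.9 CPM there at 96 h AEL, so no fitted value is given for them. Against a floor of 3 UMIs over all crystal cells of 120 h AEL, MtnD was at least 26.1-fold lower there than at 96 h AEL, and at least 4.11-fold without library 2 of 96 h AEL. The calls for CG33695 (at least 20 cells a library, or without library 2 of 120 h AEL), CG31832 (without library 1 of 120 h AEL) and MtnD (DESeq2) were lost under the settings named.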

How the results depend on the processing

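The number of cells per library limits these results: class sums of 10 to 55 cells leave most genes untested between times, and the exact tests of shares can reach few p-values. The share at 120 against 96 h AEL differed by -0.34 percentage points with a threshold of 4% (exact permutation test, p = 0.0952), and ranged from -0.85 to -0.64 with 1 library left out. The lymph gland and circulation difference at 96 h AEL ranged from -12.8 to -5.11 with 1 library left out (exact permutation test, p = 0.0571 to 0.0952). Of the counts of genes called, 566 between times became 288 with the 4% threshold and 227 with at least 20 cells a library, and 339 to 618 with 1 library left out. The interaction gave 301 genes and 210 to 454 with 1 library left out. The cause of these moves was not tested. Total UMIs as scale and the bounds for MtnB and MtnD with 1 library left out were chosen after seeing the data. Total UMIs gave 84 positive and 177 negative interactions.

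Deviations of same-numbered libraries correlated at -0.31 to -0.07 between 120 and 96 h AEL. Between lymph gland and circulation they correlated at -0.19 to -0.16 at 96 h AEL and at 0.08 to 0.37, all positive, at 120 h AEL. The numbers were not taken as pairs in the main tests. Whether same-numbered libraries of 120 h AEL shared a preparation was not tested. With the replicate block the share difference was -0.745 (exact permutation test, p = 0.125, the smallest 4 pairs allow) and 287 genes were called between times. Between lymph gland and circulation, 716 genes were called with the block against 770 without. For the named genes, 2107 repeats kept direction and side of the threshold, 39 repeats over 11 results lost the call, and none reversed.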
